A study of Mus musculus with 18 samples.

Results

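Collagens, laminins and integrins are the structural proteins of the extracellular matrix and the receptors through which cells hold on to it. The genes were taken by name alone, with no measured value used: protein-coding rows of the deposited comparison table whose symbols follow the naming of collagen alpha chains, of laminin chains or of integrin subunits. The rule found 84 genes among 26601 rows: 43 collagen genes, 11 laminin genes, 25 integrin subunit genes and 5 genes that only share the start of an integrin name (Itgb1bp1, Itgb1bp2, Itgb1bp3, Itgb3bp and Itgbl1). Their RNA was counted in cells sorted from the lateral cortex of C57BL/6 mouse embryos at embryonic day 14.5, with 3 libraries in each of 3 groups, and all groups carry the labelled genotype Btg2GFP/Tubb3GFP. Neuron is labelled Tubb3 positive (Tubb3 encodes a tubulin of neurons). The DP group, differentiating progenitors, is labelled Btg2 positive (Btg2 is switched on in progenitors about to make neurons), and the PP group, proliferating progenitors, is labelled Btg2 negative. Sample titles name red fluorescence for the sort of DP and PP and green fluorescence for Neuron, whereas the genotype label names GFP for both reporters. Each sample came from a pool of more than 3 embryos taken from several litters, with the meninges and ganglionic eminences dissected away. PP was gated on the absence of a reporter.

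At this stage the cortical wall is spanned by radial glia, whose outer endfeet rest on the basement membrane under the meninges. Laminins and collagen IV form the sheets of a basement membrane, and radial glia bind it through integrins that contain the β1 subunit and through dystroglycan. Fibrillar collagens are typical products of meningeal fibroblasts and of cells around vessels. Integrins work as pairs of an α and a β subunit, so the level of a single subunit does not give the level of a receptor.

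Each library held between 34337209 and 55935128 counts over its 2 runs. Levels are counts per 1000000 counts (CPM), with library totals scaled by TMM. Marker genes followed the labels: a list of 8 radial glia genes summed to 380.1, 326 and 298 CPM in Neuron, 3625, 2543 and 2494 CPM in DP and 6319, 6136 and 5403 CPM in PP. Likewise 5 intermediate progenitor genes summed to 597, 569 and 627 CPM in Neuron, 2685, 3743 and 3964 CPM in DP and 1250, 1276 and 1268 CPM in PP, and 5 neuron genes to 7721, 7581 and 7162 CPM in Neuron, 1528, 2166 and 1784 CPM in DP and 269, 153 and 109.5 CPM in PP. The intermediate progenitor list names Btg2 and the neuron list names Tubb3, the genes behind the group labels. Their part in these sums was fixed by the sort, and sums without them were not made. Red cell genes, mostly globins, summed to 14.7, 14.4 and 16.7 CPM in Neuron, 126, 19.4 and 22.2 CPM in DP and 15330, 8368 and 8795 CPM in PP, so RNA of blood was present in all PP libraries. DP library L223 stood apart from L356 and L394 in red cell genes and in 3 choroid plexus genes, which summed to 1.08, 0.772 and 0.953 CPM in Neuron, 56.6, 8.51 and 6.27 CPM in DP and 58.8, 14.6 and 30.3 CPM in PP. Neuron also held the most RNA of 5 Cajal-Retzius cell genes, which summed to 929, 924 and 814 CPM in Neuron, 45.6, 56.0 and 45.3 CPM in DP and 6.85, 5.10 and 3.72 CPM in PP. For 5 genes of interneurons and ventral cells the sums were 389, 368 and 367 CPM in Neuron, 149, 86.5 and 26.9 CPM in DP and 49.4, 15.4 and 4.13 CPM in PP. The part of these cells in members higher in Neuron, such as Lamb1 and Itga3, was not tested. Libraries carry numbers that no label gives, so a library was tied to its group only. In sorted pools, fewer cells of a type and less RNA per cell cannot be told apart.

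By group mean, 46 of the 76 tested members were highest in PP and lowest in Neuron. This order was not counted over all features, so nothing is read from that number. Of the 84 members, 76 passed the filter on low counts, 33 had a group mean of at least 10 CPM and 24 stayed below 1 CPM in all groups. DP was above PP for 10 members and below it for 42 (edgeR quasi-likelihood test, adjusted p under 0.05). That is 68.4% of the tested members, against 41.4% of all 18627 features (21.3% higher, 20.2% lower). The median log2 fold change of the tested members was -0.63, against -0.02 over all features. Neuron was above DP for 18 members and below it for 41, or 77.6% against a background of 67.3% (33.1% higher, 34.2% lower). The median was -1.16, against -0.04 over all features. Neuron was above PP for 18 members and below it for 48, or 86.8% against a background of 75.3% (36.7% higher, 38.6% lower). Here the median was -2.11, against -0.04. These comparisons share their groups and so are not independent. Scarce members that passed the filter on low counts did so through the group in which they were high. Without Col6a5, which had 0 reads in PP, the medians were -0.63, -1.25 and -2.18. Other scarce members stayed in, among them Col19a1 (1 read in DP), Col6a4 (2 in PP), Col4a3 (1 in Neuron) and Itgb2 (2 in Neuron). With at least 1 CPM in 3 libraries required, 54 members were tested. Neuron was then above DP for 9 and below it for 33. The authors' deposited table had the same call for 45 of the 52 members called between DP and PP and for 56 of the 59 called between Neuron and DP. For Col1a2, Col3a1, Col6a1, Itga11 and Lamc3, all called here between DP and PP, that table held no adjusted p. Its log2 fold changes for DP over PP were -3.40, -3.44, -3.76, -3.51 and -3.71 in the same order.

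Summed over its genes, each family had less RNA in Neuron. The collagens summed to 124, 129.9 and 133 CPM in Neuron, 636, 457 and 634 CPM in DP and 807, 818 and 1182 CPM in PP. For the laminins the sums were 188, 178 and 171 CPM in Neuron, 399, 319.9 and 343 CPM in DP and 510.4, 519 and 585 CPM in PP. Integrin subunits came to 252, 239 and 251 CPM in Neuron, 468, 428 and 438 CPM in DP and 625, 641 and 585 CPM in PP. No library of 1 group reached the range of another in any of these sums, and the collagen sum of PP library L393 stood above those of the other PP libraries. Per kilobase of gene model, the most abundant member in Neuron was Itgb1, with 30.9 ± 0.35 CPM per kb (SD, n = 3), followed by Lamb1 with 9.77 ± 0.386 and by Lamc1 and Itga6, which did not differ beyond their spread (6.70 ± 0.497 and 6.59 ± 0.351 CPM per kb). In DP, Itgb1 (42.8 ± 1.15 CPM per kb) and Col2a1 (40.9 ± 9.44) overlapped at the top, and Lamb2 came next at 19.7 ± 3.27 CPM per kb. In PP the order was Col2a1 (58.6 ± 9.34 CPM per kb), Itgb1 (43.8 ± 2.83) and Lamb2 (36.9 ± 3.37), with Lamc1, Itgb8 and Itga6 close together at 15.7 ± 0.66, 14.7 ± 1.77 and 14.2 ± 0.55 CPM per kb.

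Laminin trimers are built from an α, a β and a γ chain. All 11 laminin genes were tested: DP was above PP for 2 and below it for 7, and Neuron was above DP for 4 and below it for 6. That is 81.8% and 90.9% called, against 41.4% and 67.3% of all features. The β chains went in opposite directions. Lamb2, the laminin β2 chain (mm9 chr9:108382193-108392861), had 0.983, 1.22 and 1.31 CPM in Neuron, 127, 90.9 and 115 CPM in DP and 193, 200.2 and 229 CPM in PP. The groups did not overlap, and its log2 fold change was -0.90 ± 0.12 (SE), adjusted p = 8.85e-05 for DP over PP and -6.56 ± 0.17 (SE), adjusted p = 6.59e-11 for Neuron over DP. The fitted value is 94.6-fold less Lamb2 RNA in Neuron than in DP. Lamb1, the laminin β1 chain (mm9 chr12:31950099-32014509), had 101, 95.6 and 93.9 CPM in Neuron, 35.9, 43.3 and 39.9 CPM in DP and 7.95, 11.1 and 18.6 CPM in PP. The groups again did not overlap, with Neuron the highest. The log2 fold change of Lamb1 was 1.65 ± 0.22 (SE), adjusted p = 0.000132 for DP over PP and 1.29 ± 0.21 (SE), adjusted p = 0.000217 for Neuron over DP. Per kilobase, the ratio of Lamb1 to Lamb2 was 58.4, 44.5 and 40.5 in Neuron, 0.16, 0.27 and 0.197 in DP and 0.0233, 0.0313 and 0.0461 in PP. Lamb1 was thus the main β chain RNA in all 3 Neuron libraries and Lamb2 in all 6 progenitor libraries.

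The promoter windows of this pair are shown because the genes moved in opposite directions. Each covers 250 bases before to 50 bases after the RefSeq start, 5′ to 3′ on the gene's strand, with matches to the GC box (GGGCGG), the CCAAT box (CCAAT) and the TATA box (TATAAA) on either strand in capitals.
Lamb2, GRCm38.p6 chr9:108479612-108479911, plus strand: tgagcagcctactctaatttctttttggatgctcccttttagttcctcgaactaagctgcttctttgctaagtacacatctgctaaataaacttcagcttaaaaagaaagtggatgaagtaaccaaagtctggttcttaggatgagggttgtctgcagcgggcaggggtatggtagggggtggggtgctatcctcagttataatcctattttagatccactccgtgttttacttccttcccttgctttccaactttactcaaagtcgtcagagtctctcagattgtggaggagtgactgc
Lamb1, GRCm38.p6 chr12:31265043-31265342, plus strand: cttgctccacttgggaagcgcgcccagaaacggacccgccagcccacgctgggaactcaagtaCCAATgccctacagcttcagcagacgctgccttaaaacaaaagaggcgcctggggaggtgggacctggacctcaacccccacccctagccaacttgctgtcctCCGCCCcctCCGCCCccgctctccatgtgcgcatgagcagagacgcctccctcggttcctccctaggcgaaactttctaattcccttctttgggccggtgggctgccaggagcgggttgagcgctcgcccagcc
The Lamb1 window holds 2 GC box matches, both on the opposite strand, and 1 CCAAT match, whereas the Lamb2 window holds none of the 3 motifs. A match describes letters and shows no binding.

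The γ1 chain gene Lamc1, the partner of both β chains in most laminins, had 59.2, 56.1 and 51.0 CPM in Neuron, 96.2, 81.2 and 76.0 CPM in DP and 125, 135 and 128 CPM in PP. It was lower at each step (log2 fold change -0.62 ± 0.091 (SE), adjusted p = 0.000249 for DP over PP and -0.61 ± 0.092 (SE), adjusted p = 0.0001 for Neuron over DP), and each Neuron library held at least 51.0 CPM. Of the α chains, Lama5 (α5) had 11.0, 8.31 and 8.50 CPM in Neuron, 77.7, 69.4 and 69.9 CPM in DP and 92.5, 80.8 and 93.9 CPM in PP. Its difference between DP and PP was small, -0.30 (adjusted p = 0.035) on the log2 scale, and was lost on leaving out any of the libraries L356, L394, L222 or L393 (adjusted p between 0.0944 and 0.115), whereas Neuron over DP had -2.97 (adjusted p = 9.66e-10). Lama1 (α1), a chain of the earliest embryonic basement membranes, had 11.3, 12.6 and 13.2 CPM in Neuron, 56.4, 29.6 and 37.8 CPM in DP and 83.0, 78.5 and 93.5 CPM in PP. Its log2 fold changes were -1.04 (adjusted p = 0.000828) and -1.74 (adjusted p = 7.3e-06) for the 2 steps. Lama2 and Lama4, the α chains of muscle and of vessels, were less abundant. Lama4 had 0.258 to 0.427 CPM in Neuron, 1.395 to 2.19 CPM in DP and 3.25 to 6.90 CPM in PP, lower at both steps. Lama2 had 0.953 to 1.498 CPM in Neuron, 2.35 to 3.58 CPM in DP and 3.22 to 5.57 CPM in PP, lower in Neuron than in DP (log2 -1.25 with adjusted p = 0.00144) and at -0.61 (adjusted p = 0.0712) for DP over PP.

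Lama3 and Lamb3, chains of the epithelial laminin of skin, were scarce, with at most 0.752 CPM in any library. Both were higher in Neuron than in DP. The call of Lamb3 at that step (adjusted p = 0.0443) was lost without any of L224, L357, L395, L356, L394 or L222. Lama3 had 0.464 to 0.752 CPM in Neuron, 0.0471 to 0.0581 CPM in DP and 0.0214 to 0.0616 CPM in PP. Lamb3 had 0.464 to 0.632 CPM in Neuron, 0.241 to 0.353 CPM in DP and 0 to 0.0641 CPM in PP, and was also higher in DP than in PP. Lamc3 (γ3) had 0, 0.0203 and 0.0773 CPM in Neuron, 0.494, 0.0581 and 0.121 CPM in DP and 1.34, 3.01 and 8.46 CPM in PP. In PP it was highest in library L393. Its log2 fold change for DP over PP was -4.29 ± 0.76 (SE), adjusted p = 0.0009 with all libraries, and -3.31 (adjusted p = 0.00199) without L393. Without DP library L223 it was -5.58 (adjusted p = 0.000832). For Neuron over DP the value of -2.71 (adjusted p = 0.133) passed the threshold without L393 (adjusted p = 0.0492).

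**Figure D1:**
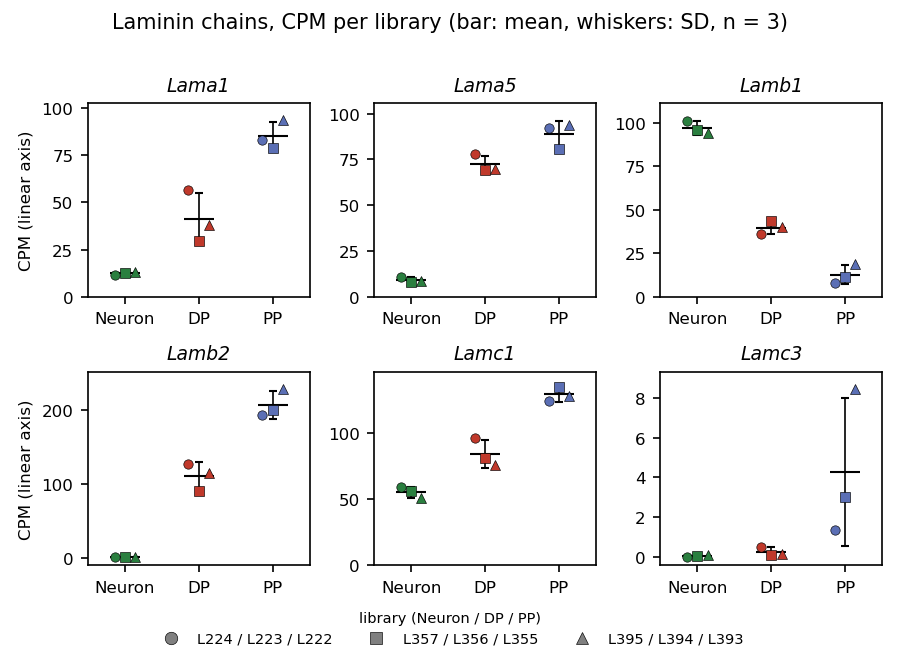
CPM (linear axis) of 6 laminin chains in each library of the Neuron, DP and PP groups, with the group mean as a bar and the SD as whiskers (n = 3). Lamb2 lies near 1 CPM in Neuron and near 200 CPM in PP, Lamb1 runs the other way, and the Lamc3 mean in PP is carried by library L393 (triangle).

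Collagens are trimers of alpha chains that form fibrils, sheets or fibril-associated and membrane-bound molecules. Among the 38 tested collagen genes, DP was above PP for 4 and below it for 22, and Neuron was above DP for 8 and below it for 20. That is 68.4% and 73.7% called, against 41.4% and 67.3% of all features, so the second share over both directions is near the background. By direction, 21.1% were higher and 52.6% lower in Neuron than in DP, against 33.1% and 34.2% of all features. The median log2 fold change at that step was -1.22, against -0.04. The sheet-forming collagen IV chains fell into pairs that lie head to head in the genome. Col4a5 and Col4a6 lie on the X chromosome (mm9 chrX:137909928-138123778 and chrX:137599946-137908619). Col4a5 had 1.10, 0.894 and 0.979 CPM in Neuron, 41.7, 32.0 and 43.5 CPM in DP and 52.8, 51.5 and 67.5 CPM in PP. Col4a6 had 0.351, 0.305 and 0.103 CPM in Neuron, 16.7, 11.4 and 15.9 CPM in DP and 16.6, 18.2 and 22.1 CPM in PP. Both were at or below 1.10 CPM in Neuron and far above that in every progenitor library. The log2 fold change for Neuron over DP was -5.30 ± 0.18 (SE), adjusted p = 4.11e-10 for Col4a5 and -5.81 ± 0.28 (SE), adjusted p = 5.06e-09 for Col4a6. Col4a5 was also lower in DP than in PP (log2 -0.55 with adjusted p = 0.00521). The value of Col4a6 there, -0.37 (adjusted p = 0.121), missed the threshold. The per-kilobase ratio of Col4a5 to Col4a6 lay between 2.97 and 3.80 in the DP and PP libraries. In Neuron it was 3.73, 3.49 and 11.3, where Col4a6 had 34 reads in all.

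Col4a1 and Col4a2, the common chains of all basement membranes, lie on chromosome 8 (mm9 chr8:11198423-11312826 and chr8:11312805-11449287), where their annotated ends overlap by 22 bases. Col4a1 had 7.16, 8.78 and 9.84 CPM in Neuron, 16.1, 12.8 and 18.5 CPM in DP and 24.7, 43.2 and 97.3 CPM in PP. Col4a2 had 7.94, 8.43 and 8.68 CPM in Neuron, 11.2, 7.98 and 10.8 CPM in DP and 17.9, 25.4 and 59.9 CPM in PP. Unlike Col4a5 and Col4a6, they kept 7.16 to 9.84 CPM in Neuron. The PP libraries spread widely, with L393 the highest. DP was lower than PP for Col4a1 (log2 -1.80 with adjusted p = 0.00285) and for Col4a2 (log2 -1.79 with adjusted p = 0.00173). Without L393 these log2 values were -1.10 and -1.11, still past the threshold. For Neuron over DP, Col4a1 had -0.88 ± 0.39 (SE), adjusted p = 0.0678. With neighbouring library numbers as a replicate block its adjusted p = 0.0247. Col4a2 had -0.25 ± 0.36 (SE), adjusted p = 0.548. The chains Col4a3 and Col4a4, a further head-to-head pair on chromosome 1, were rare. Col4a4 had 0.0515 to 0.492 CPM in Neuron, 0.73 to 0.775 CPM in DP and 1.77 to 2.01 CPM in PP. Col4a3 had 0 to 0.0234 CPM in Neuron, 0.31 to 0.589 CPM in DP and 0.752 to 1.09 CPM in PP. Both were lower at each step, though the call of Col4a3 between DP and PP was lost without L356, L394 or L393.

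The promoter windows of both pairs are shown, drawn as above, since paired genes started close together and had like patterns. The RefSeq starts of Col4a1 and Col4a2 are 21 bases apart and their windows share 78 bases. The starts of Col4a5 and Col4a6 are 1343 bases apart.
Col4a1, GRCm38.p6 chr8:11312777-11313076, minus strand: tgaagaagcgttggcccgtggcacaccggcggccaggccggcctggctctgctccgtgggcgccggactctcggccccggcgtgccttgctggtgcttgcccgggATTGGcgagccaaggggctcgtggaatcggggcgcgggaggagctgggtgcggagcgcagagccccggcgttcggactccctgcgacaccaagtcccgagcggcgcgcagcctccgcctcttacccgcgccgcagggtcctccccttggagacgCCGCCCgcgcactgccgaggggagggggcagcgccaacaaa
Col4a2, GRCm38.p6 chr8:11312555-11312854, plus strand: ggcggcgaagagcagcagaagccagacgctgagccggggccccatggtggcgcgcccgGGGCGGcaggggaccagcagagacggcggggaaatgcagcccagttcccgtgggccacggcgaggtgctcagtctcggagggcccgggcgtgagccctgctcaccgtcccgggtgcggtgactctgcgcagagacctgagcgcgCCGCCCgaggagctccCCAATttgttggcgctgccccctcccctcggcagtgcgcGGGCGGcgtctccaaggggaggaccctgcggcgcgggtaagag
Col4a5, GRCm38.p6 chrX:141475169-141475468, plus strand: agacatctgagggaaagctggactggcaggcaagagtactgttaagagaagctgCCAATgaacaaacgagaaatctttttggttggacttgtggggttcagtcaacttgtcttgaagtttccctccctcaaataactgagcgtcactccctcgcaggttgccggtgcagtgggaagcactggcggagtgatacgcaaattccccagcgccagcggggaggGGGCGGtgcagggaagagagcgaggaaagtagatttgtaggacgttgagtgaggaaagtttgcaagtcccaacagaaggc
Col4a6, GRCm38.p6 chrX:141474027-141474326, minus strand: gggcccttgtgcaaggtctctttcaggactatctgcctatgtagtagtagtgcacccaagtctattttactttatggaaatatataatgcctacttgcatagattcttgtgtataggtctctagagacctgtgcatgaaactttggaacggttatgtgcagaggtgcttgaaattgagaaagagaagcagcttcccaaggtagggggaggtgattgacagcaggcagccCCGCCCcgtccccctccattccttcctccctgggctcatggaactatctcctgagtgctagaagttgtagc
Of the 84 members, 61 have a window in the RefSeq table, with 67 windows in all. GC box letters occur in 53.7% of these windows and in 35.7% of all 32851 windows of the table, CCAAT in 26.9% and 37.4%, and TATAAA in 7.46% and 13.6%.

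Fibrillar collagens showed several patterns. Col2a1, best known from cartilage, was the most abundant collagen per kilobase in DP and PP, with 4.99, 3.495 and 4.25 CPM in Neuron, 283, 181 and 276 CPM in DP and 338, 306 and 416 CPM in PP. It was far lower in Neuron than in DP, by 58.3-fold (log2 -5.87 ± 0.22 (SE), adjusted p = 7.74e-10). Its smaller difference between DP and PP, -0.52 (adjusted p = 0.0286), missed the threshold without L393 (adjusted p = 0.114) and without L356 (adjusted p = 0.0859). Col27a1, another cartilage collagen, had 0.421, 0.366 and 0.309 CPM in Neuron, 10.6, 11.7 and 15.7 CPM in DP and 11.9, 12.3 and 17.4 CPM in PP. Its level in Neuron was low as well (log2 -5.10 with adjusted p = 6.47e-09), and the DP and PP libraries overlapped.

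Col1a1, Col1a2 and Col3a1, the chains of collagens I and III made by fibroblasts, were low in all but the PP libraries. Col3a1 (mm9 chr1:45368383-45406551) had 0, 0.0406 and 0.36 CPM in Neuron, 2.17, 0.0775 and 0.41 CPM in DP and 4.40, 8.93 and 44.1 CPM in PP. Within PP its level in L393 was 6.62 times the mean of L222 and L355, and within DP the highest library was L223. The log2 fold change for DP over PP was -4.48 ± 0.99 (SE), adjusted p = 0.0037. It was -2.94 without L393, -3.89 without L356 and -6.36 without L223, with adjusted p between 0.00202 and 0.0177. Col1a1 had 0.492, 0.386 and 1.03 CPM in Neuron, 2.33, 0.31 and 0.844 CPM in DP and 3.89, 6.66 and 21.4 CPM in PP. Col1a2 had 0.117, 0.0203 and 0.0515 CPM in Neuron, 1.58, 0.31 and 0.579 CPM in DP and 3.95, 6.68 and 22.7 CPM in PP. Both were lower in DP than in PP. For Col1a1 the log2 fold change was -3.23 (adjusted p = 0.00348), or -2.20 without L393 and -4.24 without L223. For Col1a2 it was -3.78 (adjusted p = 0.000963), or -2.71 without L393 and -4.66 without L223. Between Neuron and DP the libraries overlapped for Col1a1 and Col3a1. For Col1a2 they did not overlap, but its call (log2 -3.66 with adjusted p = 0.0191) was lost without L223, L357 or L395, at adjusted p values of 0.103, 0.0656 and 0.0535. Without L224 its value was -4.45.

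Col5a1, Col5a2, Col11a1, Col11a2 and Col24a1 are minor fibrillar chains. Col5a2 lies 24.6 kb from Col3a1 on chromosome 1 and had 6.58, 7.15 and 6.23 CPM in Neuron, 30.9, 31.2 and 33.9 CPM in DP and 28.0, 29.8 and 32.5 CPM in PP. DP and PP overlapped, and Neuron was lower than DP, with a log2 fold change of -2.26 ± 0.093 (SE), adjusted p = 1.53e-09. Col5a1, which pairs with it in collagen V, had 8.62, 9.57 and 9.35 CPM in Neuron, 30.2, 16.5 and 25.2 CPM in DP and 48.8, 42.4 and 60.8 CPM in PP. It was lower at both steps, -1.08 (adjusted p = 0.000814) and -1.38 (adjusted p = 6.76e-05). Col11a1 and Col11a2 are chains of collagen XI. Col11a1 had 21.8, 23.6 and 23.5 CPM in Neuron, 41.5, 39.8 and 45.2 CPM in DP and 45.2, 44.4 and 45.1 CPM in PP. DP and PP overlapped and Neuron was lower (log2 -0.87 with adjusted p = 6.2e-07). Col11a2 had 16.9, 18.8 and 20.0 CPM in Neuron, 8.22, 9.20 and 12.9 CPM in DP and 10.1, 8.39 and 11.8 CPM in PP, and Neuron exceeded DP (log2 0.88 with adjusted p = 0.000667). Col24a1, a scarce fibrillar chain, had 1.69, 1.69 and 1.98 CPM in Neuron, 0.353, 0.291 and 0.338 CPM in DP and 0.107, 0.128 and 0.37 CPM in PP. It was more abundant in Neuron than in DP (log2 2.44 with adjusted p = 3.6e-05). Its log2 difference of 0.64 between DP and PP had an adjusted p of 0.243, and 0.0104 without L393, where the value was 1.44.

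Fibril-associated collagens decorate fibrils of other collagens. Col22a1, known from tissue junctions, had 0.726, 0.467 and 0.36 CPM in Neuron, 8.01, 6.86 and 9.16 CPM in DP and 35.6, 30.7 and 34.0 CPM in PP. The groups did not overlap, with -2.06 ± 0.14 (SE), adjusted p = 1.03e-06 for DP over PP and -3.94 ± 0.20 (SE), adjusted p = 7.91e-09 for Neuron over DP. The single-read run alone gave -4.82 for the second. Col12a1 had 3.65, 6.16 and 4.53 CPM in Neuron, 14.8, 14.2 and 12.1 CPM in DP and 34.5, 55.4 and 35.9 CPM in PP. It was also lower at both steps, -1.61 (adjusted p = 7.18e-05) and -1.52 (adjusted p = 6.31e-05). Col16a1 had 0.562, 0.61 and 0.644 CPM in Neuron, 9.49, 7.88 and 10.9 CPM in DP and 12.9, 13.7 and 17.2 CPM in PP. Col16a1 had -3.96 (adjusted p = 5.05e-09) for Neuron over DP and -0.63 (adjusted p = 0.00462) for DP over PP. Against this trend Col14a1 was highest in DP, with 0.679, 0.183 and 0.258 CPM in Neuron, 3.63, 5.85 and 4.63 CPM in DP and 0.725, 0.47 and 0.555 CPM in PP. The log2 values were 3.02 ± 0.35 (SE), adjusted p = 4.31e-05 for DP over PP and -3.66 ± 0.38 (SE), adjusted p = 3.75e-06 for Neuron over DP. Without Neuron library L224 the second value was -4.42.

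The collagen IX chains differed from each other. Col9a3 was highest in Neuron, with 18.0, 19.1 and 17.9 CPM in Neuron, 11.9, 12.2 and 13.5 CPM in DP and 14.1, 15.5 and 15.6 CPM in PP. Over DP, the log2 fold change was 0.55 (adjusted p = 0.000141). Its value for DP over PP, -0.27 (adjusted p = 0.028), missed the threshold without any of L223, L356, L355 or L393 (adjusted p between 0.0821 and 0.092). Col9a2 was highest in DP, with 3.60, 2.17 and 3.04 CPM in Neuron, 4.36, 3.85 and 5.67 CPM in DP and 1.85, 1.54 and 2.157 CPM in PP. Its log2 fold changes were 1.32 (adjusted p = 0.000715) for DP over PP and -0.66 (adjusted p = 0.0197) for Neuron over DP. The second call was lost without L357 (adjusted p = 0.0872) or L394 (adjusted p = 0.0877). Col9a1 showed no call in any comparison and stayed between 0.73 and 1.16 CPM. Col20a1 had 3.63, 3.82 and 4.87 CPM in Neuron, 0.73, 1.28 and 1.45 CPM in DP and 1.16, 0.961 and 1.03 CPM in PP, and Neuron exceeded DP (log2 1.83 with adjusted p = 2.82e-05). Col19a1, the neighbour of Col9a1 at a distance of 9.2 kb, was found mostly in Neuron: 0.655 to 1.16 CPM there, 124 reads in all, against 1 read over the DP libraries and 3 over the PP libraries.

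The multiplexins, collagens of basement membrane zones, parted as well. Col18a1 had 1.36, 0.975 and 1.44 CPM in Neuron, 72.9, 38.3 and 62.9 CPM in DP and 79.0, 71.5 and 111 CPM in PP. Its log2 fold change for Neuron over DP was -5.54 ± 0.30 (SE), adjusted p = 1.25e-08, and its DP and PP libraries overlapped. The call between DP and PP, -0.59 (adjusted p = 0.048), was at the threshold and was lost on leaving out any library except L223 and L355. Col15a1 had 1.26, 1.93 and 1.75 CPM in Neuron, 0.518, 0.233 and 0.314 CPM in DP and 0.618, 1.22 and 4.05 CPM in PP, so that DP was the lowest group. Its log2 fold changes were -2.50 (adjusted p = 0.00689) for DP over PP and 2.23 (adjusted p = 0.00759) for Neuron over DP. Without L393, DP over PP was -1.39 (adjusted p = 0.0196). Collagen VI chains, typical of fibroblasts and pericytes, were likewise highest in PP library L393. Col6a1 had 0.141, 0.163 and 0.18 CPM in Neuron, 0.235, 0.0581 and 0.121 CPM in DP and 0.403, 1.52 and 4.71 CPM in PP. Its log2 fold change for DP over PP was -4.04 (adjusted p = 0.00197) with all libraries, -2.83 without L393 and -4.64 without L223. Col6a2 and Col6a3 were at or below 0.989 CPM in DP, against 1.64 to 6.10 and 0.832 to 8.48 CPM in PP. Both were lower in DP than in PP (log2 -2.29 and -2.85), although a DP and a PP library overlapped for Col6a3. The scarce chains Col6a4 and Col6a5 lie side by side on chromosome 9 and had the opposite order, 0.258 to 0.445 and 0.398 to 0.541 CPM in Neuron. Over the PP libraries together Col6a4 had 2 reads and Col6a5 had 0 reads, which allows up to 0.0226 CPM (3 counts, counting error only).

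Among the remaining collagens, the membrane-spanning Col25a1, known from amyloid plaques, had 0.386 to 0.726 CPM in Neuron, 1.60 to 2.02 CPM in DP and 3.27 to 3.60 CPM in PP, and Col17a1, of epithelial attachment plaques, had 0.0203 to 0.0468 CPM in Neuron, 0.271 to 0.471 CPM in DP and 0.897 to 1.33 CPM in PP. Both were lower at each step. Col23a1 had 2.66 to 3.84 CPM in Neuron, 1.78 to 2.41 CPM in DP and 2.04 to 3.78 CPM in PP with no call. Col7a1, the anchoring fibril collagen of skin, had 2.86 to 3.53 CPM in Neuron, 2.92 to 4.58 CPM in DP and 5.42 to 9.06 CPM in PP. It was lower in DP than in PP (log2 -0.97 with adjusted p = 0.00542). Col28a1 was higher in DP than in PP (log2 2.66 with adjusted p = 0.00012) at no more than 0.609 CPM, and Col8a2 was lower in Neuron than in DP (log2 -3.63 with adjusted p = 0.00864) at no more than 0.8005 CPM. The 5 collagens that were not tested, Col5a3, Col6a6, Col8a1, Col10a1 and Col13a1, had at most 0.438 CPM in any library.

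**Figure D2:**
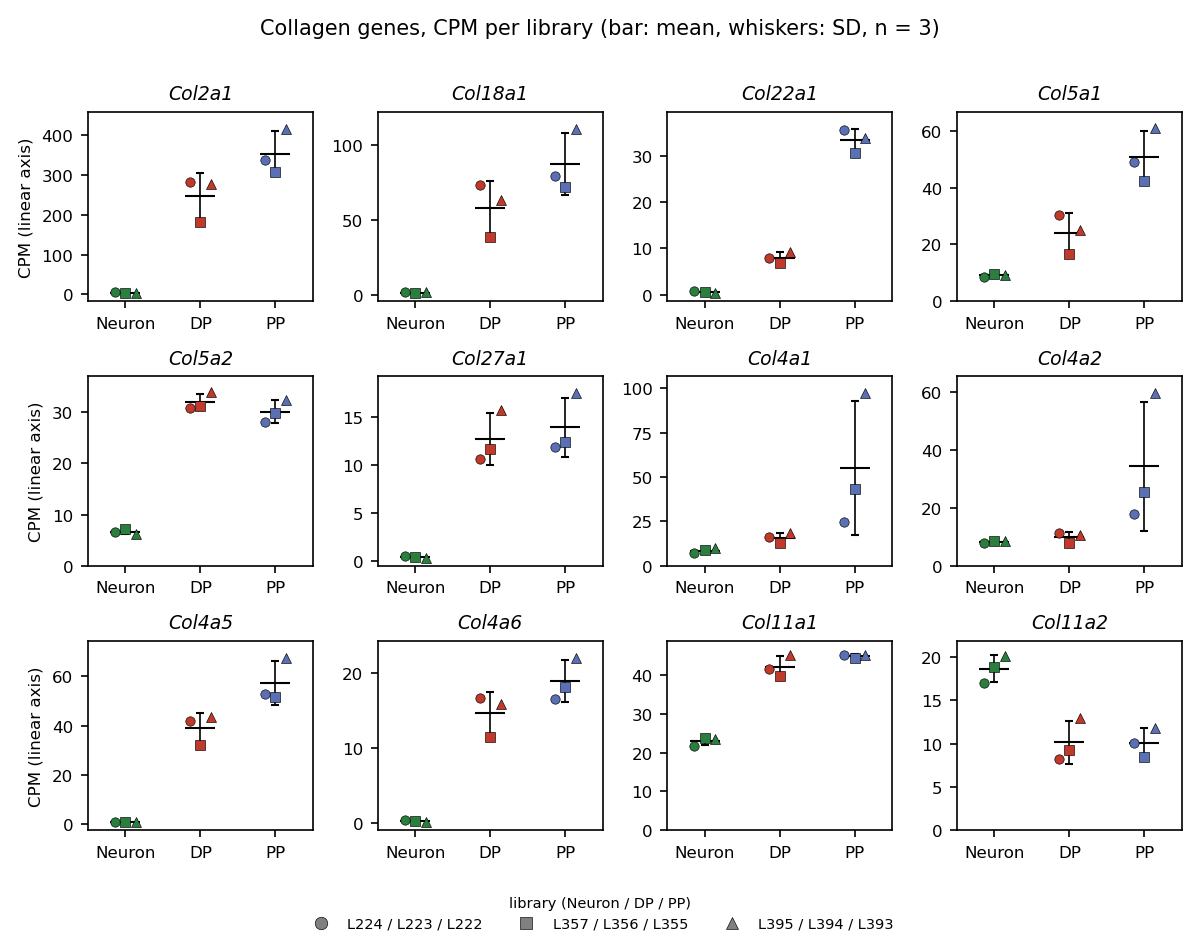
CPM (linear axis) of 12 collagen chains in each library of the Neuron, DP and PP groups, with the group mean as a bar and the SD as whiskers (n = 3). Col2a1, Col18a1, Col27a1, Col4a5 and Col4a6 are near 0 in Neuron, Col5a2 and Col11a1 have like levels in DP and PP, and the spread of Col4a1 and Col4a2 in PP comes from library L393 (triangle).

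Library L393 was far from the other PP libraries for some members. In 13 of the 76 tested members (17.1%), library L393 held over 2 times the mean of L222 and L355, which was so in 1.8% of all 18627 features. These were Itga7, Col4a2, Col4a1, Col6a2, Col24a1, Lamc3, Itga11, Col1a1, Col1a2, Col15a1, Col6a1, Col6a3 and Col3a1, with ratios from 2.02 to 6.62. By contrast, the PP libraries held 193, 200.2 and 229 CPM of Lamb2, 35.6, 30.7 and 34.0 CPM of Col22a1 and 173, 175 and 140.4 CPM of Itgb8. Marker genes of other cell types varied too. A list of 13 meningeal fibroblast genes, none of them a member, summed to 5.17, 3.78 and 5.20 CPM in Neuron, 12.5, 9.71 and 10.0 CPM in DP and 14.7, 13.3 and 28.5 CPM in PP. Of its 7 tested genes, DP was below PP for 3 (42.9%) and above it for 2 (28.6%), against 20.2% and 21.3% of all features. Its transcription factors Foxc1 and Tbx18 were scarce. Foxc1 had 0.107, 0.427 and 1.33 CPM and Tbx18 0.376, 0.812 and 3.16 CPM in PP, both highest in L393. They are examples and do not stand for the list, in which 2 tested genes were higher in DP than in PP. Foxc2, Foxd1, Twist1 and Aldh1a2, also on the list, had 0 reads in Neuron. The 15 endothelial genes summed to 31.7, 29.8 and 35.1 CPM in Neuron, 40.7, 39.6 and 42.2 CPM in DP and 38.4, 44.9 and 63.2 CPM in PP. Of this, Ramp2 alone gave 23.6 to 27.1 CPM in every library. DP was below PP for 8 of the 13 tested genes (61.5%, against 20.2% of all features) and above it for 0. The vessel cadherin Cdh5 had 1.21, 1.56 and 4.95 CPM in PP, again highest in L393. The 9 pericyte and smooth muscle genes summed to 3.93, 3.62 and 4.30 CPM in Neuron, 17.8, 13.1 and 11.7 CPM in DP and 41.6, 58.8 and 68.2 CPM in PP. DP was below PP for 7 of the 8 tested genes (87.5%, against 20.2% of all features), and Acta2 had 0 reads in Neuron. The part of these cells in the values of the members was not tested. Without L393, 45 of the 52 members called between DP and PP kept their call and direction, and Col18a1, Col2a1, Col4a3, Col9a3, Itga2, Itgal and Lama5 lost it.

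**Figure D3:**
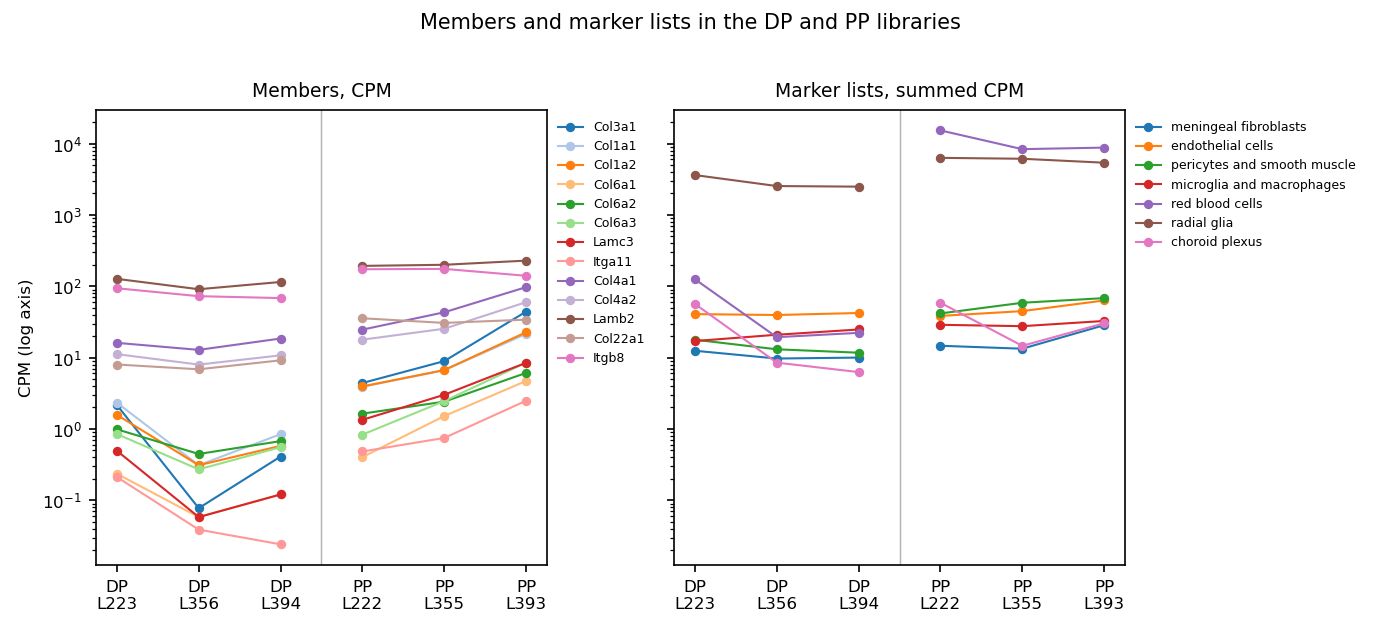
CPM (log axis) of 13 members (left) and summed CPM of 7 marker lists (right) in each DP and PP library, with lines joining the libraries of a group only to guide the eye. Col3a1, Col1a1, Col1a2, the 3 Col6a chains, Lamc3 and Itga11 have their highest value in L393, as does the meningeal list (28.5 CPM), whereas Lamb2, Col22a1 and Itgb8 vary little within PP.

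Of 25 integrin subunit genes 23 were tested. DP was above PP for 3 and below it for 12, and Neuron was above DP for 4 and below it for 14. That is 65.2% and 78.3% called, against 41.4% and 67.3% of all features. Itgb1, the β1 subunit shared by the laminin, collagen and fibronectin receptors, was the most abundant integrin per kilobase in all groups. It had 127, 124 and 127 CPM in Neuron, 169.8, 179 and 174 CPM in DP and 180.0, 189.5 and 166.5 CPM in PP. DP and PP overlapped (log2 -0.03 ± 0.063 (SE), adjusted p = 0.7), and Neuron was lower than DP (-0.47 ± 0.063 (SE), adjusted p = 3.98e-05). Itgb8, which pairs with αv, had 9.55, 9.12 and 8.58 CPM in Neuron, 93.8, 72.7 and 68.3 CPM in DP and 173, 175 and 140.4 CPM in PP. Itgb5, another partner of αv, had 0.281, 0.61 and 0.232 CPM in Neuron, 3.56, 3.16 and 2.098 CPM in DP and 13.8, 14.2 and 10.6 CPM in PP. Both were lower at each step with no overlap. For DP over PP and for Neuron over DP, the log2 fold changes were -1.06 and -3.11 for Itgb8 and -2.13 and -2.92 for Itgb5 (adjusted p between 2.33e-09 and 3.77e-05). Itgav, the αv subunit itself, had 5.36, 5.36 and 4.61 CPM in Neuron, 41.8, 33.9 and 32.7 CPM in DP and 62.8, 65.4 and 60.8 CPM in PP. Its log2 fold change was -0.80 ± 0.099 (SE), adjusted p = 6.28e-05 for DP over PP and -2.82 ± 0.11 (SE), adjusted p = 1.16e-09 for Neuron over DP.

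Of the laminin-binding α subunits, Itga6 (α6) had 61.1, 55.9 and 61.5 CPM in Neuron, 88.1, 65.9 and 77.3 CPM in DP and 131, 132 and 123 CPM in PP. It was lower at both steps, -0.74 (adjusted p = 9.45e-05) and -0.37 (adjusted p = 0.00463). Itga3 (α3) ran the other way, with 16.1, 15.8 and 16.9 CPM in Neuron, 6.59, 7.65 and 8.80 CPM in DP and 3.19, 3.67 and 4.05 CPM in PP. It was higher at both steps, 1.07 ± 0.13 (SE), adjusted p = 6.51e-05 for DP over PP and 1.08 ± 0.13 (SE), adjusted p = 1.07e-05 for Neuron over DP. Itga7, the muscle laminin receptor, had 0.129 to 0.345 CPM in Neuron, 0.565 to 0.872 CPM in DP and 0.256 to 0.637 CPM in PP. The fibronectin receptor subunit Itga5 (α5) had 0.304, 0.183 and 0.335 CPM in Neuron, 20.6, 13.9 and 20.1 CPM in DP and 27.5, 30.8 and 39.3 CPM in PP. On the log2 scale it had -0.84 ± 0.17 (SE), adjusted p = 0.00191 for DP over PP and -6.06 ± 0.27 (SE), adjusted p = 2.58e-09 for Neuron over DP. Itga8, a further subunit of this class, had 2.44 to 3.30 CPM in Neuron, 2.11 to 2.85 CPM in DP and 1.26 to 2.12 CPM in PP with no call at either step.

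Itga4 and Itga9, closely related α subunits, were both highest in DP. Itga4 had 16.9, 10.7 and 14.7 CPM in Neuron, 19.1, 27.1 and 27.0 CPM in DP and 5.45, 2.69 and 4.13 CPM in PP. The log2 values were 2.59 ± 0.25 (SE), adjusted p = 9.89e-06 for DP over PP and -0.80 ± 0.23 (SE), adjusted p = 0.00848 for Neuron over DP. The gene overlaps Cerkl on the other strand by 1124 bases, and unless the counting used the strand, reads of the 2 genes cannot be told apart there. Itga9 had 1.38, 1.402 and 1.36 CPM in Neuron, 5.42, 6.08 and 5.91 CPM in DP and 1.504, 2.31 and 2.69 CPM in PP. For the same steps its values were 1.41 ± 0.19 (SE), adjusted p = 0.000133 and -2.07 ± 0.20 (SE), adjusted p = 2.27e-06. Itga1, Itga2, Itga10 and Itga11 are the collagen-binding subunits. Itga1 had 0.102 to 0.154 CPM in Neuron, 2.13 to 3.23 CPM in DP and 5.37 to 8.40 CPM in PP. Itga2, its neighbour on chromosome 13, had 0.0203 to 0.0773 CPM in Neuron, 1.38 to 1.45 CPM in DP and 1.94 to 2.39 CPM in PP. Both were lower at each step, though Itga2 lost the call between DP and PP without any of L223, L356, L394, L222 or L393. Itga11 had 0.483, 0.748 and 2.49 CPM in PP and at most 0.212 CPM elsewhere (DP over PP -3.78 (adjusted p = 0.00191), or -2.75 without L393 and -5.16 without L223). Itga10 had 5.34 to 6.54 CPM in Neuron, 6.33 to 8.20 CPM in DP and 9.48 to 10.8 CPM in PP, lower in DP than in PP (log2 -0.48 with adjusted p = 0.0107). For Neuron over DP it had -0.27 (adjusted p = 0.0803), or adjusted p = 0.0149 with the replicate block. Its level is uncertain, since reads may be shared with another annotation there.

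The leukocyte integrins were near the detection limit, and their β2 subunit Itgb2 had 0.256 to 0.43 CPM in PP and 2 reads over the Neuron libraries. Itgal and Itgam had at most 0.8055 and 0.698 CPM in any library, and Itgax was not tested. The 14 microglia and macrophage genes summed to 10.1, 12.4 and 12.4 CPM in Neuron, 17.1, 20.9 and 24.8 CPM in DP and 28.8, 27.6 and 32.6 CPM in PP. Itgae and Itgb7, partners in lymphocytes, stayed below 1 CPM, as did the platelet subunit Itgb3, which had 0.589 to 0.632 CPM in Neuron, 0.241 to 0.4 CPM in DP and 0.662 to 0.883 CPM in PP and was the lowest in DP. Itga2b, its platelet partner, had 1.36 to 1.71 CPM in Neuron, 0.93 to 1.59 CPM in DP and 1.02 to 1.91 CPM in PP with no call. A list of 7 platelet genes summed to 137, 144 and 138 CPM in Neuron, 20.6, 25.6 and 25.6 CPM in DP and 13.1, 12.6 and 12.4 CPM in PP, nearly all of it Gp1bb, whereas Pf4 had 9, 2 and 8 reads over the Neuron, DP and PP libraries. Itgb4, the hemidesmosome subunit, was higher in Neuron than in DP (log2 0.47 with adjusted p = 0.0476) at 2.65 to 3.58 CPM in Neuron, 1.98 to 2.44 CPM in DP and 1.30 to 1.95 CPM in PP. That call was lost without any of L224, L357, L223, L356, L394 or L222, and Itgb6 was not tested.

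The 5 genes that share only the name were not alike. Itgb1bp1, a cytoplasmic partner of the β1 tail, had 15.4, 14.9 and 14.6 CPM in Neuron, 16.7, 14.6 and 14.8 CPM in DP and 18.7, 17.0 and 15.5 CPM in PP with no call. For Neuron over PP its adjusted p was 0.0891, and 0.0267 with the replicate block. Itgb3bp, a centromere protein, had 3.19 to 3.45 CPM in Neuron, 7.71 to 9.58 CPM in DP and 8.91 to 10.5 CPM in PP and was lower in Neuron than in DP (log2 -1.40 with adjusted p = 1.14e-06). On the other strand, Itgb1bp1 overlaps Asap2 by 402 bases and Itgb3bp overlaps Pgm2 by 398 bases. Unless the counting used the strand, reads cannot be told apart there, and Asap2 and Pgm2 had 45711 and 6736 reads in all. Itgb1bp2, a chaperone-like protein known from muscle, had 5.00 to 5.64 CPM in Neuron, 3.30 to 4.34 CPM in DP and 1.77 to 2.18 CPM in PP and was higher at each step. Itgbl1, a secreted protein with integrin-like repeats, had 0.89, 1.28 and 1.16 CPM in Neuron, 0.0942, 0.0969 and 0.0482 CPM in DP and 0.242, 0.449 and 0.123 CPM in PP. Neuron exceeded DP (log2 3.73 with adjusted p = 1.61e-05), while its call for DP over PP (log2 -1.71 with adjusted p = 0.0242) was lost without L356, L394 or L355 and with the paired-end run alone (-0.90). Itgb1bp3, a kinase of the NAD pathway, was not tested, with 32 reads in Neuron, 4 in DP and 0 in PP.

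**Figure D4:**
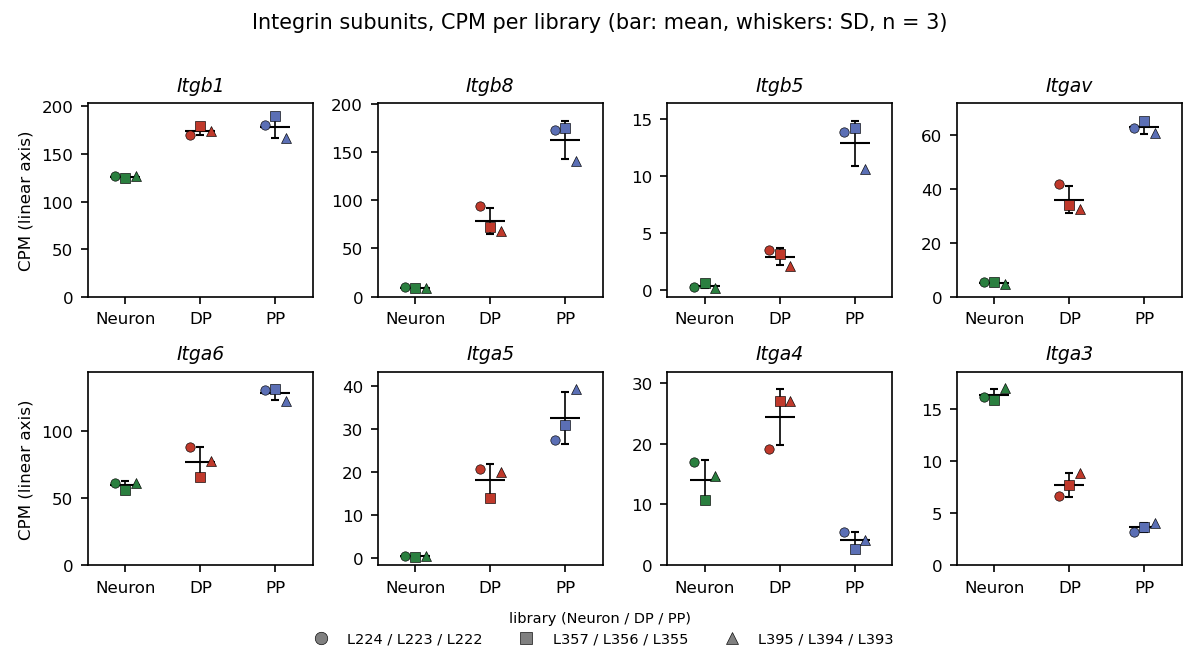
CPM (linear axis) of 8 integrin subunits in each library of the Neuron, DP and PP groups, with the group mean as a bar and the SD as whiskers (n = 3). Itgb8, Itgb5, Itgav and Itga5 are lowest in Neuron and highest in PP, Itga3 runs the other way, Itga4 peaks in DP, and Itgb1 stays near 124 CPM or higher in every library.

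**Figure D5:**
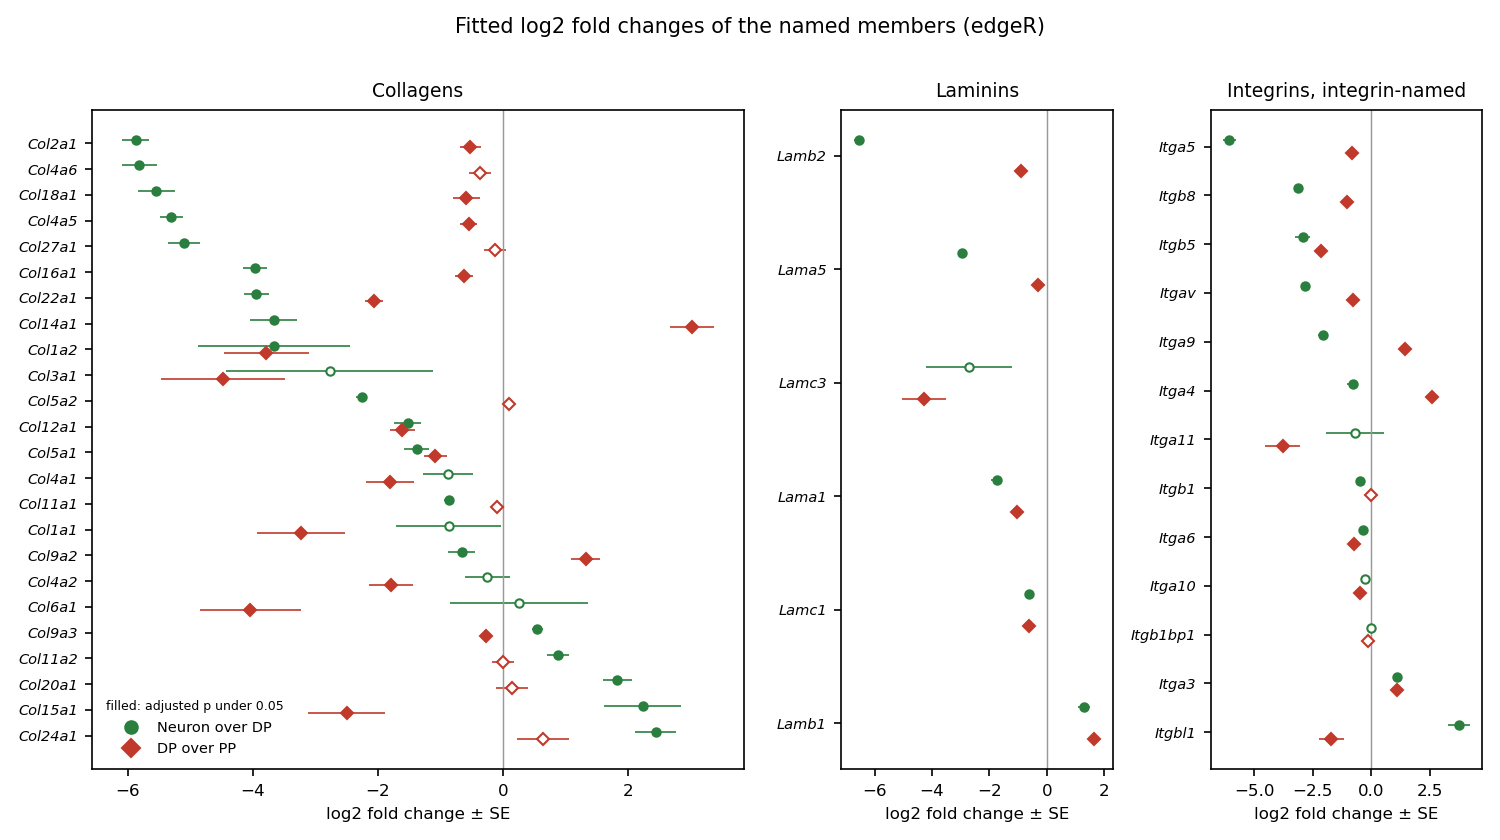
Fitted log2 fold changes (edgeR, bars SE) of the 43 named members for Neuron over DP (green circles) and DP over PP (red diamonds), filled where the adjusted p was under 0.05. Most symbols lie left of 0, the longest shifts to the left belong to Neuron over DP (Lamb2 at -6.56, Itga5 at -6.06), and Lamb1 and Itga3 lie right of 0 at both steps.

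Genes that make, surround or cut these proteins were read from 6 lists. Each list's share of called genes stands against 41.4% of all features for DP over PP and 67.3% for Neuron over DP (33.1% higher, 34.2% lower), and nothing is read from a share near these. Of 25 tested genes for other matrix glycoproteins and proteoglycans, DP was above PP for 0 and below it for 14 (56.0% called), and Neuron was above DP for 3 and below it for 16 (76.0% called), with medians of -0.68 and -1.66. Tnc, the glycoprotein tenascin C of progenitor zones, had 1.92, 2.44 and 1.62 CPM in Neuron against 156.2, 168.4 and 137 CPM in DP (log2 -6.25 with adjusted p = 2.15e-10). Sparc, a collagen-binding protein, had 0.562, 1.02 and 1.31 CPM in Neuron against 57.5, 51.8 and 44.3 CPM in DP (log2 -5.74 with adjusted p = 4.34e-10). Nid1, which links laminin to collagen IV, had 3.06, 2.25 and 1.71 CPM in DP against 5.34, 11.3 and 19.8 CPM in PP (log2 -2.38 with adjusted p = 0.000932), with L393 the highest of the PP libraries. The opposite direction was seen for Tnr, tenascin R, with 33.6, 38.4 and 29.8 CPM in Neuron against 0.33, 0.31 and 0.386 CPM in DP (log2 6.63 with adjusted p = 9.62e-10). The fibrillin Fbn2 had 60.9, 75.7 and 72.0 CPM in Neuron against 13.8, 10.2 and 12.5 CPM in DP (log2 2.52 with adjusted p = 9.23e-08). Thbs1, a thrombospondin, had 32.6, 21.4 and 20.9 CPM in DP against 68.5, 79.2 and 52.4 CPM in PP (log2 -1.42 with adjusted p = 0.000132).

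Of 30 tested genes of collagen synthesis and crosslinking, DP was above PP for 4 and below it for 15 (63.3% called), and Neuron was above DP for 10 and below it for 14 (80.0% called). The propeptide protease Adamts3 had 278, 287 and 294 CPM in Neuron against 23.9, 18.4 and 19.0 CPM in DP (log2 3.81 with adjusted p = 1.06e-10). With 59.7, 54.2 and 53.4 CPM in PP, it was lowest in DP (DP over PP log2 -1.45 with adjusted p = 7.69e-07). Tll2, another protease of this list, was higher at both steps, with 3.41, 3.22 and 2.97 CPM in DP against 0.913, 0.748 and 0.678 CPM in PP (log2 2.05 with adjusted p = 3.3e-06). P4ha3, a prolyl hydroxylase subunit, had 2.45, 1.92 and 1.52 CPM in DP against 16.3, 18.9 and 16.6 CPM in PP (log2 -3.14 with adjusted p = 1.1e-06). Leprel1 and Fkbp10, which modify and fold procollagen in the endoplasmic reticulum, had log2 values of -4.76 (adjusted p = 3.89e-09) and -4.73 (adjusted p = 1.02e-08) for Neuron over DP. The crosslinking oxidase Loxl1 was highest in DP, with 52.0, 62.2 and 42.1 CPM in DP against 11.97, 25.8 and 18.2 CPM in PP (log2 1.48 with adjusted p = 0.000469), whereas Loxl3 was lower in DP than in PP (log2 -1.48 with adjusted p = 2.72e-05). Ppib, a cyclophilin of the same compartment, was higher in DP than in PP (log2 0.43 with adjusted p = 0.00922).

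Of 12 tested genes for dystroglycan and its glycosylation, DP was above PP for 1 and below it for 5 (50.0% called), and Neuron was above DP for 3 and below it for 6 (75.0% called). Dag1, dystroglycan itself, had 119.6, 117 and 100.1 CPM in Neuron, 154, 131 and 117 CPM in DP and 197, 212 and 192 CPM in PP, lower at both steps (log2 -0.58 with adjusted p = 0.000839, and log2 -0.25 with adjusted p = 0.0443). The second call was close to the threshold, and the Neuron and DP libraries overlapped. Large, the enzyme that builds the laminin-binding sugar of dystroglycan, was higher at both steps (log2 0.30 with adjusted p = 0.00324, and log2 1.51 with adjusted p = 2e-09). Of 32 tested genes of the integrin adhesion complex, DP was above PP for 6 and below it for 14 (62.5% called), and Neuron was above DP for 11 and below it for 13 (75.0% called). Tns1 and Tns3, tensins that tie β1 integrins to actin, were lower in Neuron. Tns1 had 2.67, 3.68 and 2.86 CPM in Neuron against 71.4, 63.5 and 60.1 CPM in DP (log2 -4.40 with adjusted p = 9.33e-11), and Tns3 had 3.82, 4.04 and 3.66 CPM in Neuron against 96.4, 69.2 and 70.1 CPM in DP (log2 -4.35 with adjusted p = 3.69e-10). The focal adhesion kinase gene Ptk2 was higher at each step (log2 0.44 with adjusted p = 0.000115, and log2 0.94 with adjusted p = 5.01e-08), the adaptor Bcar1 was higher in DP than in PP (log2 1.43 with adjusted p = 1.28e-06), and Parvb, a parvin, was higher in Neuron than in DP (log2 2.58 with adjusted p = 1.63e-07). Of 14 tested genes for other matrix receptors and integrin partners, DP was above PP for 5 and below it for 6 (78.6% called), and Neuron was above DP for 1 and below it for 11 (85.7% called). Among the syndecans, Sdc3 had 264, 384 and 316.7 CPM in DP against 99.8, 75.7 and 58.0 CPM in PP (log2 2.05 with adjusted p = 5.25e-06). Sdc4 had 0.0702, 0.122 and 0.103 CPM in Neuron against 6.07, 4.204 and 4.41 CPM in DP (log2 -5.58 with adjusted p = 4.04e-09).

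Of 17 tested matrix proteases and inhibitors, DP was above PP for 5 and below it for 6 (64.7% called), and Neuron was above DP for 9 and below it for 4 (76.5% called), and the median log2 fold change for Neuron over DP was 0.67. Mmp24, a membrane-bound metalloprotease of the nervous system, had 142, 139.9 and 129.9 CPM in Neuron, 21.1, 28.8 and 21.2 CPM in DP and 2.79, 1.62 and 1.38 CPM in PP. It was higher at both steps, 3.65 (adjusted p = 3.63e-07) and 2.53 (adjusted p = 9e-08). Mmp17 is also membrane-bound and had 164, 190.0 and 151 CPM in Neuron against 27.6, 21.8 and 21.6 CPM in DP (log2 2.83 with adjusted p = 1.53e-09). Mmp14, the collagen-cleaving membrane metalloprotease, was highest in DP, with 71.7, 63.9 and 61.8 CPM in Neuron, 173, 174 and 164 CPM in DP and 138, 141 and 139.5 CPM in PP. Adamts4, which cuts lecticans, was higher in DP than in PP (log2 2.12 with adjusted p = 1.29e-07), and Adamts9 had 0.398, 0.549 and 0.592 CPM in Neuron against 26.2, 15.0 and 17.8 CPM in DP (log2 -5.25 with adjusted p = 2.48e-08).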

How the data were processed

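RNA of 9 libraries (3 Neuron, 3 DP, 3 PP) was analysed, each sequenced in a single-read and a paired-end run (18 labelled samples). The authors deposited whole-number counts per gene and run for Ensembl release 67 genes and unannotated transcripts, per the file headers. Build mm9 is named in the submitters' processing notes, as are, among other tools, featureCounts 1.4.4, TopHat2 2.0.10 and DESeq2 1.4.5, without saying what each was used for. The deposited comparison tables hold a normalised signal per library, the authors' log2 fold changes and their p-values, per the file headers. This signal is a library's summed counts over a size factor, within a tolerance of 0.06 for 159605 of 159606 and 159603 of 159606 values. Whether the strand was used is not stated here, and overlapping genes can share reads.

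The library numbers in the count columns are in no label, so each column was tied to a group and not to a replicate. The counts of both runs were added. Chi-square tests found that libraries of a group differed (8.475 to 31.27 per degree of freedom), more than sampling alone gives. The series states biological replicates, and p-values measure the spread between these pools of embryos. CPM are counts scaled to TMM-adjusted library totals. CPM per kb uses the gene length deposited with the counts.

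The comparisons used edgeR 4.0.16 under R 4.3.3 (filterByExpr, TMM, quasi-likelihood test on all 9 libraries, group as the only term, Benjamini-Hochberg over 18627 features at 0.05). The script was checked on simulated counts. Standard errors were derived from the F statistic. DESeq2 1.42.0 and the other settings are alternatives. Deviations from the group mean correlated at 0.13 to 0.345 between libraries with neighbouring numbers (9 pairs, such as L222, L223 and L224) and at -0.319 to 0.0106 between others (18 pairs), so neighbouring numbers were used as a replicate block. That pairing comes from the column names and the data, not from the labels.

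Members with a group mean of at least 10 CPM are named with each library, as are, per comparison, the 5 highest and 5 lowest called members with at least 1 CPM, and Col3a1 and Lamb2. Other members are named within their role group, after their values were seen. Of each of the 6 pathway lists, the 2 highest and 2 lowest called genes per step with at least 5 CPM could be named. For 5 list symbols no row was found. The 12 marker lists were summed per library. Members and lists were chosen with earlier results of these data known. Promoter windows are RefSeq, GRCm38.p6, and were used for letters only, while gene coordinates are mm9. Levels at 0 reads cover counting error only. Some results are not reported here because their items are withheld.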

Additional observations from a re-analysis of the deposited data

How the results depend on the processing

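Counts of members called were recomputed under 17 alternatives. Requiring at least 1 CPM in 3 libraries removed scarce members from the test (54 tested in place of 76): 9 were then higher in Neuron than in DP, against 18, and 11 higher in Neuron than in PP, against 18. With the paired-end run alone (67 tested), 11 were higher in Neuron than in DP. Every other count stayed within 1.5 times. On leaving out each library in turn, DP was above PP for 9 to 14 members and below it for 35 to 42. Neuron was above DP for 16 to 20 and below it for 38 to 44, and above PP for 18 to 19 and below it for 48 to 50. With DESeq2, 50 of 52, 57 of 59 and 66 of 66 called members kept their call and direction in DP against PP, Neuron against DP and Neuron against PP.

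Of 2174 recomputed fold changes of named members, 36 lost their call, 12 gained one and 9 changed sign, all 9 for values that had no call. On leaving out each library in turn, these ranged for DP over PP from -0.04 (without L394) to 0.39 for Col20a1, from -0.32 to 0.07 (without L393) for Col27a1 and from -0.07 to 0.01 (without L355) for Itgb1. For Neuron over DP they ranged from -1.38 to 0.16 (without L223) for Col1a1, from -1.12 to 0.69 (without L223) for Itga11, from -0.08 to 0.03 (without L223) for Itgb1bp1 and from -0.15 (without L356) to 0.88 for Col6a1, which had -0.66 with the single-read run alone. For Neuron over PP the range of Col15a1 was -0.68 to 0.84 (without L393). The cause was not tested.

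With the replicate block of neighbouring library numbers, no member lost its call. Among the named members, the block changed no call other than those of Col4a1 (-0.89), Itga10 (-0.27) and Itgb1bp1 (-0.19) given in the report, and DP was above PP for 11 members and below it for 42, Neuron above DP for 19 and below it for 44, and Neuron above PP for 19 and below it for 49. Levels below 1 CPM rest on few reads, and L393 and L223 set much of the spread of the fibroblast collagens.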

Other observations

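Members that lie within 200 kb of each other on mm9 form 12 neighbouring pairs, and their patterns were not always alike. Col1a1 and Itga3 lie 91.4 kb apart on chromosome 11: DP was lower than PP for Col1a1 (-3.23) and higher for Itga3 (1.07). Col6a1 and Col6a2, 85.2 kb apart on chromosome 10, were both lower in DP than in PP (-4.04 and -2.29), as were Itga1 and Itga2 on chromosome 13 (-1.30 and -0.63). The per-kilobase ratio of Col1a1 to Col1a2 was 2.73, 1.85 and 2.70 in DP and 1.83, 1.85 and 1.75 in PP, although the level of each differed several-fold between the PP libraries. For the neighbours Col6a1 and Col6a2 the same ratio was less steady in PP, at 0.466, 1.19 and 1.46. Col1a1 and Col1a2 lie on chromosomes 11 and 6 and were taken as chains of collagen I. The other pairs were picked by position, and no test of likeness was made.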
